A study of Mus musculus with 55 samples.

Results

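The effect of housing was examined across the whole CSDS cohort, as the difference between mice raised in EE and mice raised in SH with the stress phenotype as a covariate. The comparison was set by the design, so every mouse belonged to it: all 54 of the 54 mice of the series, 27 from EE and 27 from SH, were included. They came from 55 libraries, since EE control mouse 9 had been sequenced in 2 runs that were added together. Bulk RNA was sequenced from a punch of the ventral dentate gyrus of each mouse, without pooling of animals. All animals were male C57BL/6J mice with no transgene. They entered their housing at postnatal day 21, stayed in it for 8 weeks and were killed at P90. EE was a large cage for 12 mice with tunnels, objects and running wheels, and SH was a standard cage for 3 mice. Control mice were left undefeated, whereas the other mice met CD-1 aggressors on each of 10 days (chronic social defeat stress, CSDS) and were ranked RES or SUS from the social interaction test that followed. The 27 EE mice comprised 9 control, 9 RES and 9 SUS mice, and the 27 SH mice comprised 10 control, 7 RES and 10 SUS mice. During CSDS the defeated mice lived behind a perforated divider in the cages of their aggressors, so that for RES and SUS mice housing means the cage in which they grew up. EE changed group size, space, objects and access to wheels at the same time, and the labels do not tell which mice shared a cage, so these components and the cage itself cannot be told apart from housing.

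Environmental enrichment is a long-standing model of added sensory, motor and social stimulation, and in rodents it is known for its effects on hippocampal plasticity and on the birth of dentate granule cells. The dentate gyrus is the entry gate of the hippocampal circuit, and its ventral part has been linked to anxiety-like behavior and to the response to stress. Chaperones are proteins that help other proteins to fold. Those of the cytosol are induced by heat shock factor, whereas those of the endoplasmic reticulum (ER) are induced in the unfolded protein response, through the transcription factors ATF6 and XBP1.

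Sequencing depth ran from 32223034 to 90053238 read pairs per mouse, the median being 44792126 in EE and 44751130 in SH mice, and the summed library was the deepest. Genes received between 16760009 and 45872357 of these pairs in each mouse. The share of unmapped pairs averaged 16.6% ± 1.42 in EE and 15.8% ± 1.28 in SH mice (SD, n = 27 each). The granule cell markers Prox1, Calb1, Dsp, C1ql2 and Tdo2 were present in every mouse, with Prox1 between 79.7 and 210.2 CPM (counts scaled to a library of fixed size) in EE and between 96.5 and 192.6 CPM in SH mice. Markers of tissue next to the punch were present as well, and the summed level of 12 choroid plexus genes ran from 98.1 to 981 CPM in EE and from 95.0 to 1616 CPM in SH mice. In bulk tissue, fewer cells of a type and less RNA per cell cannot be told apart.

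A small fraction of the genes tested passed as different between housings, and mostly by small amounts. Of 18283 genes tested, 343 (1.88%) differed between EE and SH mice at an adjusted p of 0.05 by edgeR's quasi-likelihood test. EE raised 121 of them (0.662%) and lowered 222 (1.21%). At an unadjusted p below 0.05 by the same test, 3022 genes (16.5%) differed, so genes that did not pass cannot be taken as unchanged. Among the 343 genes, 317 were protein-coding. The median difference was 0.20 on the log2 scale for the genes that rose and −0.13 for those that fell, while the median of all genes tested was 0.0045. Only 32 of the 343 genes changed by more than 1.3-fold, 18 upward and 14 downward. The genes that rose with the smallest p-values were Penk, Hspb1, Igfbp6, Dach2, Adgrl4 and Hspa1b, and those that fell were Skil, Slc6a15, Sec24d, Nr3c2, Scgn and Galns. By the rule of the study (limma-voom, fold change above 1.3 with p below 0.05 before adjustment), 100 genes (0.547%) were DEGs, of which 68 were higher and 32 lower in EE mice, and 29 of the 343 genes were among them. The 2 sets of genes thus overlapped in part.

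**Figure D1:**
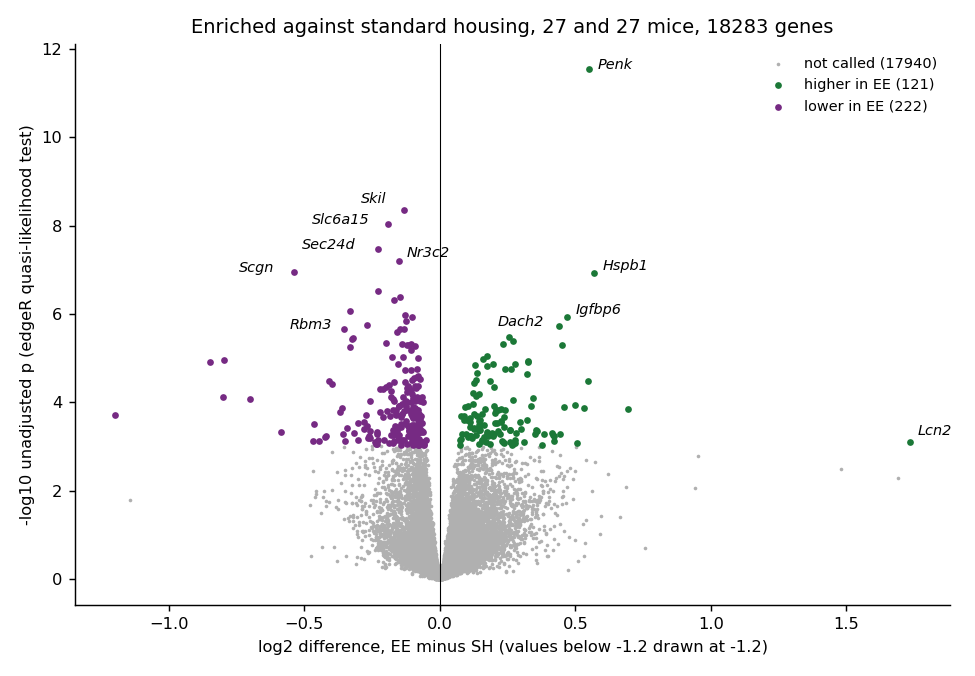
Difference between EE and SH mice for each of the 18283 genes tested. The horizontal axis gives the log2 difference, EE minus SH, and the vertical axis the negative log10 of the unadjusted edgeR p. Colored points are the 121 genes that rose (green) and the 222 that fell (purple) at an adjusted p of 0.05, Penk stands apart with the smallest p, and values beyond the left end of the axis are drawn at that end.

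Penk had the smallest p of all genes. It encodes proenkephalin, the precursor of the enkephalin opioid peptides (ENSMUSG00000045573, GRCm38 chr4:4133531-4138819, minus strand). In the 27 EE mice Penk ranged from 15.5 to 24.9 CPM with a median of 19.6 CPM, and in the 27 SH mice from 9.57 to 20.96 CPM with a median of 13.1 CPM. Every EE mouse lay above the median of the SH mice, 11 EE mice lay above the highest SH mouse, and 24 of the 27 SH mice lay below the lowest EE mouse. Means were 19.7 ± 2.99 and 13.4 ± 2.43 CPM (SD, n = 27 each), a log2 difference of 0.55 ± 0.062 (SE) with an adjusted p of 5.34e-08. In the model with 6 groups the difference was 0.72 in control, 0.39 in RES and 0.51 in SUS mice. Of the 15 opioid and other neuropeptide genes tested, only Penk was called, against 1.88% of all genes, and the list had a median log2 difference of 0.07.

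Among the 33 gene lists, the list of heat shock and chaperone genes had the most members that rose. Of 21 heat shock and chaperone genes, 10 rose and none fell, against 0.662% and 1.21% of all genes. At an unadjusted p below 0.05, 20 of the 21 were higher and 1, Dnajb5, was lower, where 8.29% of all genes were higher and 8.24% lower. The median log2 difference of the list was 0.16. This list had been written with earlier results of these data known, so its direction is a description of these samples.

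The promoters of 6 of the chaperone genes that rose are shown here since these genes belong to the heat shock and the ER stress programs, which are told apart by short motifs near the start of transcription. The windows are the 250 bases before the RefSeq start site, read 5′ to 3′ on the strand of the gene in GRCm38.p6. Capitals mark the ER stress response element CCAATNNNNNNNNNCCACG in Hspa5 (chr2:34771840-34772089, plus strand), Hsp90b1 (chr10:86705445-86705694, minus strand), Calr (chr8:84846932-84847181, minus strand) and Pdia6 (chr12:17266339-17266588, plus strand), and the heat shock element core GAANNTTC in Hspb1 (chr5:135887669-135887918, plus strand) and Hspa1b (chr17:34959239-34959488, minus strand). Matches on either strand are marked, so CGTGG with ATTGG in Hsp90b1 and Calr is the same element read from the other strand.
Hspa5: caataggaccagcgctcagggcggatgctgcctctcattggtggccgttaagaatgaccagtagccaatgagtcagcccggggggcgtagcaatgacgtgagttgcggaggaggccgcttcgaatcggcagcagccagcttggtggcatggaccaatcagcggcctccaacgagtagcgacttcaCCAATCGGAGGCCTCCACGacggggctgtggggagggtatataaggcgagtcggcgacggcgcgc
Hsp90b1: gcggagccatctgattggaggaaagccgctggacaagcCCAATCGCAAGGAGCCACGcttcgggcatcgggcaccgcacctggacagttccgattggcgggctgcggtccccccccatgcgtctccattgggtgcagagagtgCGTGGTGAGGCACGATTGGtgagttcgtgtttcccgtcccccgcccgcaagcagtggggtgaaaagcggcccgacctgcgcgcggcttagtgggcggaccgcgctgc
Calr: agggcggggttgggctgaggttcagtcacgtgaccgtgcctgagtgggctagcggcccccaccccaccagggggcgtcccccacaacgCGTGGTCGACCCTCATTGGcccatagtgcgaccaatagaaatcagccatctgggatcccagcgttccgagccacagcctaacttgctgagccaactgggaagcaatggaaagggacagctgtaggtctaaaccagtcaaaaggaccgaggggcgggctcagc
Pdia6: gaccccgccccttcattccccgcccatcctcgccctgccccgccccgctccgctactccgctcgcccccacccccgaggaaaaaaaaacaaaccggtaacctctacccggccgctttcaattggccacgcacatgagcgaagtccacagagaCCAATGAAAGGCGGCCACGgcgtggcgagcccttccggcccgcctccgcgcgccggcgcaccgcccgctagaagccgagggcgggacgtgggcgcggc
Hspb1: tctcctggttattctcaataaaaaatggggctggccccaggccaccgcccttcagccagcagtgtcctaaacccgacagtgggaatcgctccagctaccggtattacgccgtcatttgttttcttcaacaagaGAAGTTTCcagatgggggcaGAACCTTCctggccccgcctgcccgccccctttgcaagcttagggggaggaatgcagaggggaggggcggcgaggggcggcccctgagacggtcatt
Hspa1b: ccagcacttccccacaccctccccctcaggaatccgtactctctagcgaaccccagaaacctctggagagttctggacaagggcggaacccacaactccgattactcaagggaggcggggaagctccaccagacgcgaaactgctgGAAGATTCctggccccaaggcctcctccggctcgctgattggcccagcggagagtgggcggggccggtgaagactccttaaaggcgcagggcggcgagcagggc

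Of 22 genes that were higher in EE mice in this list or in the 2 wider lists described further on, which were drawn up after values were seen and include transcription factors such as Xbp1, Ddit3 and Creb3l2, 20 had a window in the RefSeq table. The ER stress response element was found in 4 of the 20, which are the 4 genes printed, whereas 0.130% of the 27025 genes in the table hold it. The matches began 65 bases upstream of the start site in Hspa5, 98 bases in Pdia6, 162 bases in Calr, and 212 and 107 bases in Hsp90b1. One of the heat shock cores GAANNTTC or TTCNNGAA was found in 3 of the 20 genes, Hspb1, Hspa1b and Hsph1, against 14.5% of all genes. The match lay 104 bases upstream in Hspa1b, and Hspb1 had a pair of matches 117 and 97 bases upstream. The lists were made of heat shock and ER stress genes, and their members that did not rise were not counted. The comparison with all genes therefore describes the make-up of the lists and not an effect of housing. A match describes the letters in these windows and not the binding of a factor.

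Hspb1 had the largest difference of the heat shock list. It encodes the small heat shock protein HSP27 (ENSMUSG00000004951, chr5:135887919-135889563, plus strand). Hspb1 ranged from 1.75 to 6.05 CPM in EE mice with a median of 3.11 CPM, and from 1.42 to 3.20 CPM in SH mice with a median of 2.13 CPM. The ranges overlapped at the low end, but 25 of the 27 EE mice lay above the median of the SH mice and 11 above the highest SH mouse. The log2 difference was 0.57 ± 0.094 (SE) with an adjusted p of 0.000309.

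Hspa1b, one of the stress-inducible HSP70 genes (ENSMUSG00000090877, chr17:34956436-34959238, minus strand), ranged from 7.55 to 16.4 CPM in EE mice with a median of 12.9 CPM and from 7.66 to 15.6 CPM in SH mice with a median of 10.5 CPM. The ranges of both housings coincided almost fully, and it was the bulk of the mice that was shifted, with 25 of 27 EE mice above the SH median. The difference was 0.27 ± 0.053 on the log2 scale, with an adjusted p of 0.00291. Hspa1b has a near-identical neighbor, Hspa1a, whose difference of 0.16 did not pass (adjusted p = 0.0559). Read pairs shared by both genes count for neither, so the split between them is uncertain.

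Cryab, another small heat shock protein, averaged 27.9 ± 4.48 CPM in EE and 23.7 ± 2.41 CPM in SH mice, a log2 difference of 0.24 ± 0.051 with an adjusted p of 0.0061. Hspa4l, a nucleotide exchange factor of HSP70, rose by 0.17 ± 0.036 with an adjusted p of 0.00455, and Hsph1, of the same family, rose by 0.15 with an adjusted p of 0.022. The highly abundant cytosolic chaperones had positive differences that did not pass, 0.12 for Hsp90aa1 (adjusted p = 0.130), 0.10 for Hspa8 (adjusted p = 0.153) and 0.08 for Dnajb1 (adjusted p = 0.0674). Dnajb5 had a value of −0.09 (adjusted p = 0.186). Hspa2, an HSP70 gene named here after its values were seen, is not on the list. It fell by 0.15 on the log2 scale, from 111.5 ± 7.67 CPM in SH to 100.2 ± 9.43 CPM in EE mice (adjusted p = 0.0053). The HSP70 family therefore did not move as one.

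Chaperones of the ER rose as well. Hspa5 encodes BiP, the main HSP70 of the ER and the sensor that holds the unfolded protein response in check (ENSMUSG00000026864, chr2:34771970-34777547, plus strand). It ranged from 260.2 to 555.3 CPM in EE mice with a median of 354.8 CPM, and from 253.1 to 381.5 CPM in SH mice with a median of 305.7 CPM. The lowest EE and SH mice were alike, while 11 EE mice exceeded the highest SH mouse, and the spread was larger in EE (370.7 ± 70.6 CPM) than in SH mice (307.1 ± 35.6 CPM). The log2 difference was 0.28 ± 0.058 with an adjusted p of 0.00535. Calr, which encodes the calcium-binding ER chaperone calreticulin (ENSMUSG00000003814, chr8:84841850-84846934, minus strand), ranged from 309.7 to 537.7 CPM in EE mice with a median of 422.4 CPM, and from 330.4 to 446.6 CPM in SH mice with a median of 368.7 CPM. As with Hspa5, 11 EE mice lay above the highest SH mouse and the lowest values were found in both housings. Its difference was 0.20 ± 0.041 with an adjusted p of 0.0053.

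**Figure D2:**
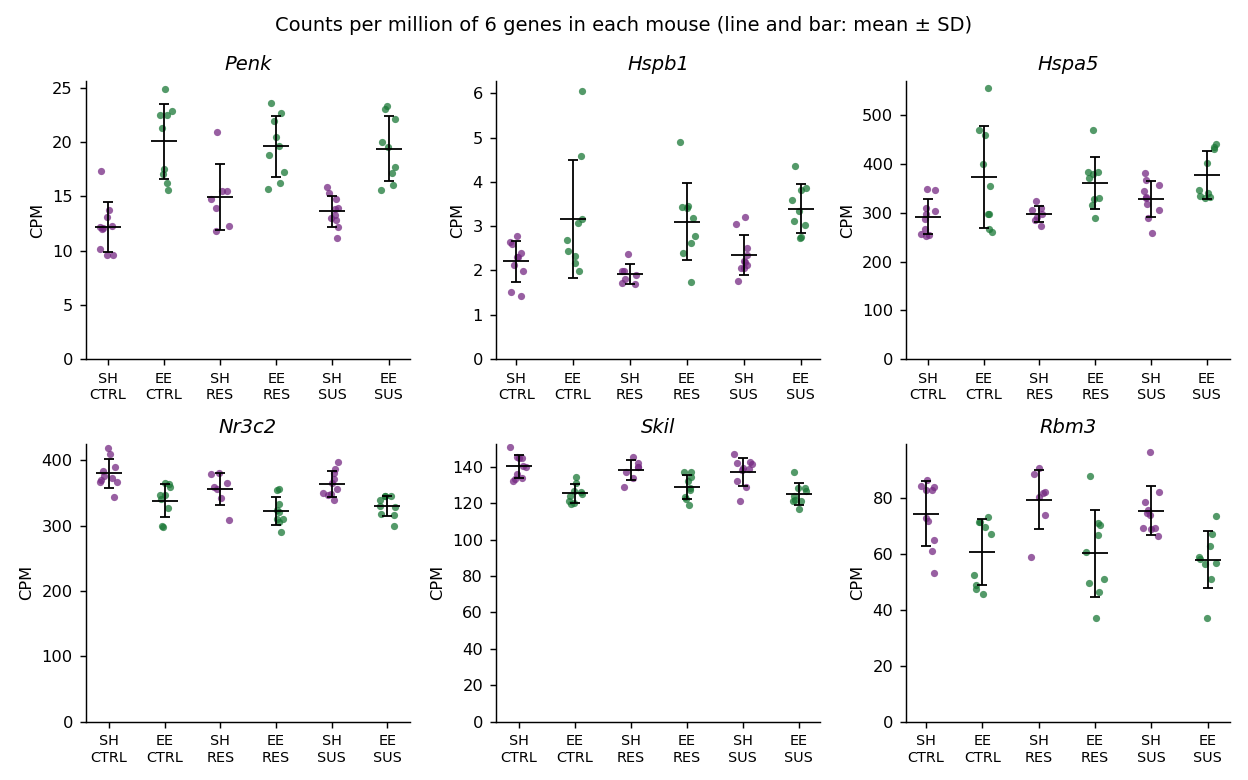
Level of 6 genes in each mouse, in CPM, with the SH (purple) and EE (green) mice of each phenotype side by side, where points are mice and the line and bar give the mean and SD of a group. All 27 EE mice lie above the median of the SH mice for Penk and below it for Skil and Nr3c2, whereas Hspb1, Hspa5 and Rbm3 overlap more widely.

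Other ER genes moved in the same direction. Sdf2l1, part of the BiP chaperone complex, had a log2 difference of 0.34 ± 0.081 (adjusted p = 0.0153). Hsp90b1, the HSP90 of the ER, averaged 394.3 ± 51.4 CPM in EE and 350.8 ± 26.4 CPM in SH mice, a difference of 0.17 ± 0.041 (adjusted p = 0.0199). The protein disulfide isomerases Pdia4 and Pdia6 rose by 0.20 (adjusted p = 0.0217) and 0.17 (adjusted p = 0.0366). Manf, a secreted ER stress protein, had a difference of 0.16 that did not pass (adjusted p = 0.0709).

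After these values were seen, a pair of wider lists was drawn up to separate the compartments. Of 27 ER chaperone and unfolded protein response genes, 14 rose and none fell, and 22 were higher and 1 lower at an unadjusted p below 0.05, with a median log2 difference of 0.11. Of 22 cytosolic heat shock genes, 8 rose and none fell, 18 were higher and 1 lower at the unadjusted threshold, and the median was 0.11. Over all genes, 0.662% rose and 1.21% fell, and 8.29% were higher and 8.24% lower at the unadjusted threshold. Besides the genes already named, the ER list included Pdia3, a disulfide isomerase that acts with calreticulin, at 0.14 (adjusted p = 0.0135), Hyou1, an ER exchange factor, at 0.11 (adjusted p = 0.0324), and Xbp1, a transcription factor of the unfolded protein response, at 0.20 ± 0.049 (adjusted p = 0.0187). Ddit3 encodes CHOP, a transcription factor known as a late marker of ER stress, and rose by 0.16 ± 0.033 from 14.8 ± 1.12 to 16.5 ± 1.43 CPM (adjusted p = 0.00482). Creb3l2, a membrane-bound transcription factor related to ATF6, rose by 0.21 (adjusted p = 0.0289). Other sensors and transcription factors of these lists gave values that did not pass, among them −0.04 for Atf4, −0.05 for Atf6, 0.04 for Ern1 and 0.11 for Hsf1. Counts for total Xbp1 do not separate its spliced from its unspliced form.

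**Figure D3:**
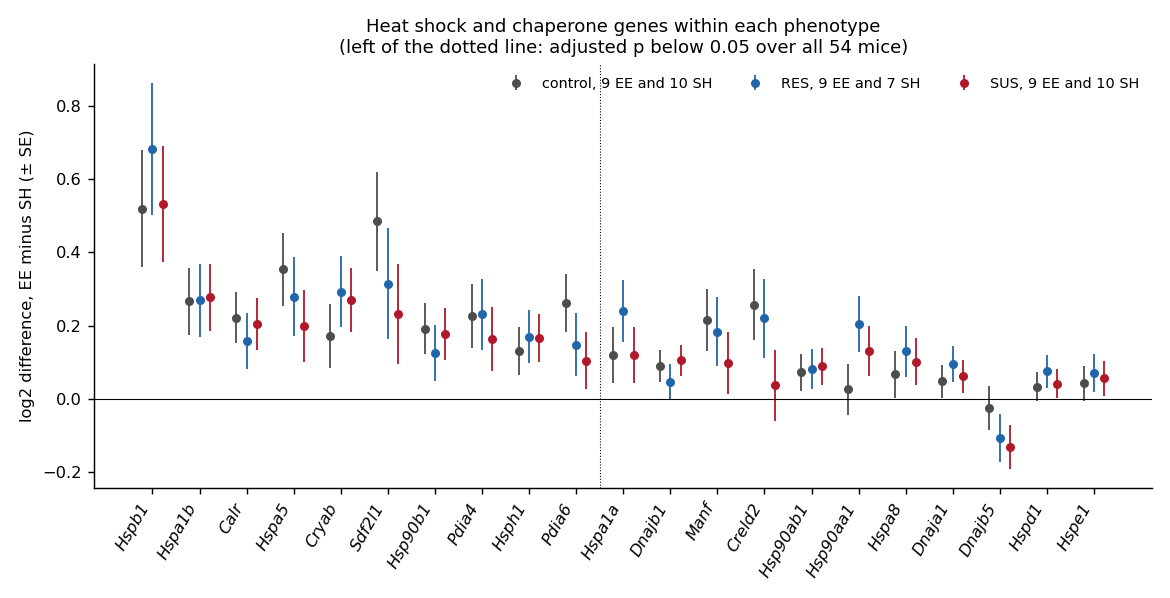
Log2 difference EE minus SH for the 21 heat shock and chaperone genes in control, RES and SUS mice, from the model with 6 groups, with bars for the SE. In each phenotype 20 of the 21 genes lie above 0 and Dnajb5 lies below it.

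The differences of the chaperones were positive in all phenotypes. In control, RES and SUS mice alike, 20 of the 21 genes had a positive difference, where 53% of all genes did in the pooled comparison, with medians of 0.17 in control, 0.17 in RES and 0.12 in SUS mice. The pooled difference was estimated from these same mice, so the shared direction is no separate check of it. Of the 343 genes called in that comparison, 341 had the same sign in all 3 phenotypes, against 36.3% of all genes. Hspb1 differed by 0.52 in control, 0.68 in RES and 0.53 in SUS mice, and Hspa5 by 0.35, 0.28 and 0.20, in the same order. The 3 sets hold different mice, which may have shared cages during rearing. None of the 21 genes passed an adjusted p of 0.05 within a single phenotype. Of the wider lists, Hspa4l and Dnajb2 passed in RES mice in the model with 6 groups (adjusted p = 0.0416 and 0.0442), but neither passed when RES mice were fitted alone.

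Scores of other gene lists differed between housings beside that of the chaperones. In the mean z-score of the list over its genes, EE mice averaged 0.38 ± 0.80 and SH mice −0.38 ± 0.46 (SD, n = 27 each), whereas the myelin score averaged 0.31 and −0.31 and the granule cell score −0.25 and 0.25. With the choroid plexus and thalamus scores as covariates 12 of the 21 chaperone genes rose, and with the granule cell score 7 did. With the red cell and myelin scores as covariates 3 of the 21 passed, while the count over all genes went from 343 to 48. The median log2 difference of the 21 genes was 0.14 in that fit and 0.16 with the granule cell score, against 0.16 without covariates. Without the 6 mice of highest choroid plexus level 11 rose.

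**Figure D4:**
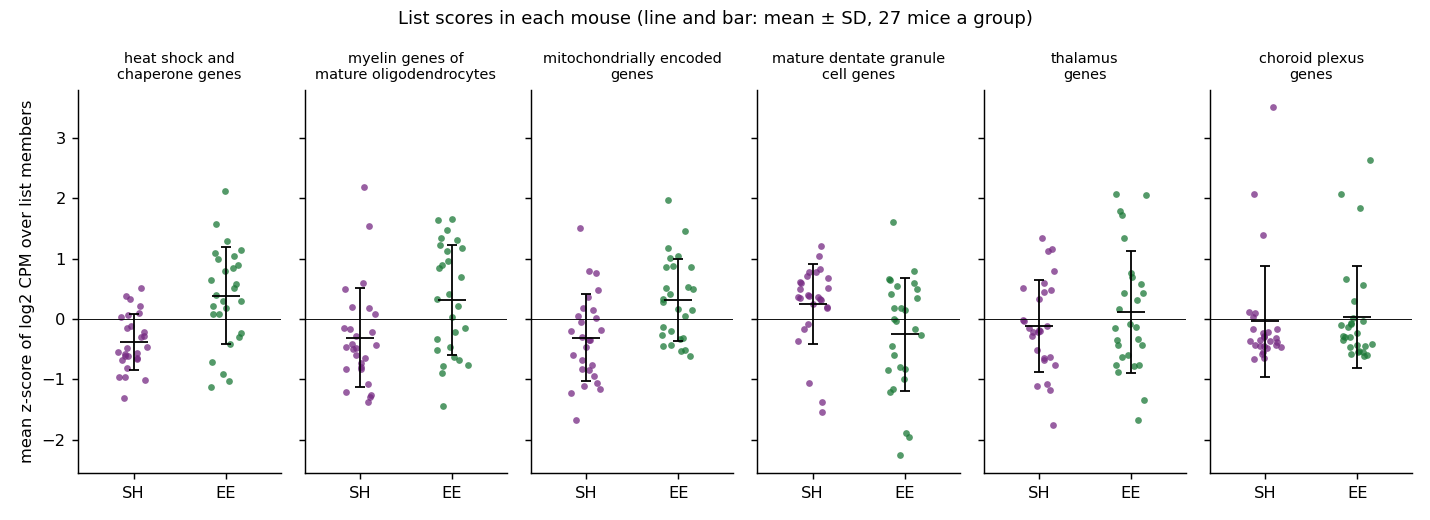
Mean z-score of gene lists in each mouse, for SH and EE mice, where the vertical axis is the log2 CPM of each gene, centered and scaled over the 54 mice and averaged over the list. Points are mice, and the line and bar give the mean and SD of the 27 mice of a housing. The chaperone score is shifted upward and more widely spread in EE mice, and the myelin and granule cell scores are shifted in opposite directions.

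Rbm3 moved opposite to the chaperones. It encodes a cold-inducible RNA-binding protein (ENSMUSG00000031167, chrX:8138975-8145880, minus strand), and it is named with its partner Cirbp after values were seen. Rbm3 ranged from 37.2 to 88.1 CPM in EE mice with a median of 59.0 CPM, and from 53.2 to 96.6 CPM in SH mice with a median of 75.9 CPM. All but 1 of the EE mice lay below the SH median, and 10 lay below the lowest SH mouse. Rbm3 fell by 0.35 ± 0.067 on the log2 scale with an adjusted p of 0.00202, and differences were −0.29 in control, −0.40 in RES and −0.38 in SUS mice. Cirbp had a value of −0.21 ± 0.064 that did not pass (adjusted p = 0.0604), with medians of 46.6 CPM in EE and 56.6 CPM in SH mice.

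Among the genes that fell, the differences were small and the separation between mice was wide. Skil encodes SnoN, a corepressor of SMAD proteins in TGF-beta signaling (ENSMUSG00000027660, chr3:31095058-31122577, plus strand). Its values ranged from 117.0 to 137.3 CPM in EE mice with a median of 126.0 CPM and from 121.4 to 151.0 CPM in SH mice with a median of 139.7 CPM. All 27 EE mice lay below the SH median, and 18 SH mice lay above the highest EE mouse. The log2 difference was −0.13 ± 0.019 with an adjusted p of 4.05e-05. Slc6a15, a transporter of neutral amino acids in neurons (ENSMUSG00000019894, chr10:103367783-103419377, plus strand), ranged from 87.2 to 112.7 CPM in EE mice with a median of 101.1 CPM and from 99.9 to 133.5 CPM in SH mice with a median of 113.1 CPM. Again all EE mice lay below the SH median, and 12 lay below the lowest SH mouse. It fell by 0.19 ± 0.029 with an adjusted p of 5.48e-05.

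Sec24d, a coat protein of the vesicles that leave the ER, averaged 37.8 ± 4.21 CPM in EE and 44.3 ± 3.39 CPM in SH mice, and all 27 EE mice lay below the SH median. It fell by 0.23 ± 0.036 (adjusted p = 0.000154), opposite to the ER chaperones. Scgn, which encodes the calcium-binding protein secretagogin, was scarce and fell by 0.54 ± 0.089 from 2.32 ± 0.615 to 1.59 ± 0.265 CPM (adjusted p = 0.000309). The lysosomal sulfatase Galns fell by 0.23, the Rap exchange factor Rapgef5 by 0.15, Fam131a by 0.17, the ALK ligand Alkal2 by 0.33, the mitochondrial malic enzyme Me3 by 0.13, the CLOCK-interacting factor Cipc by 0.10 and the translation regulator Bzw2 by 0.13 on the log2 scale. For Alkal2, Me3 and Bzw2 all 27 EE mice lay below the SH median, and for Galns and Rapgef5 26 of 27 did.

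Corticosteroid genes were among those that fell. Nr3c2 is the mineralocorticoid receptor, which binds corticosterone with high affinity in the hippocampus (ENSMUSG00000031618, chr8:76899442-77245012, plus strand). Nr3c2 ranged from 290.1 to 365.0 CPM in EE mice with a median of 330.3 CPM, and from 308.8 to 418.6 CPM in SH mice with a median of 367.2 CPM. All 27 EE mice lay below the SH median and 16 SH mice lay above the highest EE mouse. The log2 difference was −0.15 ± 0.024 with an adjusted p of 0.000227, at −0.17 in control, −0.14 in RES and −0.14 in SUS mice. Hsd11b1, the enzyme that regenerates active corticosterone, fell by 0.18 ± 0.036 from 33.8 ± 3.48 to 29.9 ± 2.39 CPM (adjusted p = 0.00455). The glucocorticoid receptor Nr3c1 had a value of −0.04 that did not pass (adjusted p = 0.368). Nr3c2 and Hsd11b1 were the only 2 of 16 corticosteroid receptor and target genes that were called, against 1.88% of all genes, and the list had a median of 0.01. With the granule cell score as a covariate the adjusted p was 0.00152 for Nr3c2 and 0.0262 for Hsd11b1, and with the red cell and myelin scores it was 0.00938 and 0.05.

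Of the other genes that rose, Igfbp6 encodes a protein that binds insulin-like growth factors, with a preference for IGF2. It averaged 5.97 ± 1.40 CPM in EE and 4.23 ± 1.09 CPM in SH mice, a log2 difference of 0.47 ± 0.086 (adjusted p = 0.00153). Igf2 itself rose by 0.31 (adjusted p = 0.046). The transcription cofactor Dach2 rose by 0.44 (adjusted p = 0.00202), with 26 of 27 EE mice above the SH median. Adgrl4, an adhesion receptor of endothelial cells, rose by 0.25 ± 0.049 (adjusted p = 0.00271), and 14 EE mice lay above the highest SH mouse. The vesicle coat gene Copz2 rose by 0.23 and Bfsp2, which encodes a filament protein first known from the lens, by 0.45 (adjusted p = 0.00291 for each).

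Lcn2 had the largest difference of the genes that rose, and it rested on few mice. This gene, an acute phase protein that reactive astrocytes secrete, had a log2 difference of 1.74 ± 0.489 (adjusted p = 0.046). It ranged from 0.0887 to 23.4 CPM in EE mice with a median of 0.454 CPM, and from 0 to 2.70 CPM in SH mice with a median of 0.388 CPM, so the medians were close and 6 EE mice lay above the highest SH mouse. It was called in 27 of the 54 fits in which 1 mouse was left out. Large differences among the genes that fell and averaged at least 1 CPM were those of Scgn, Gm10156 at −0.45, Atp6v1c2 at −0.42 and Vwa5b1 at −0.41.

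Marker genes of some cell types moved with housing as well. Myelin genes of mature oligodendrocytes were higher in EE mice, with a median log2 difference of 0.25 over 15 genes, all 15 of them positive and 12 with an unadjusted p below 0.05. Over all genes, 53% were positive, 8.29% were higher at that threshold and 0.662% were called higher. Of the 15 myelin genes 1 was called, and Mbp, the myelin basic protein gene, had a value of 0.25 that did not pass (adjusted p = 0.0597). The summed level of the 15 genes ran from 1137 to 2459 CPM in EE mice with a median of 1768 CPM, and from 1108 to 2680 CPM in SH mice with a median of 1446 CPM, so the ranges coincided. Medians were 0.09 in control, 0.37 in RES and 0.31 in SUS mice. Of 9 oligodendrocyte precursor genes, Olig2, a transcription factor of the lineage, was called at 0.24 (adjusted p = 0.0239).

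The mature granule cell genes were lower, with a median of −0.14 over 14 genes. Over all genes 1.21% were called lower. The 3 granule cell genes called were Npnt at −0.32 (adjusted p = 0.00271), Dsp at −0.30 (adjusted p = 0.0289) and Tdo2 at −0.27 (adjusted p = 0.0312). The defining granule cell factor Prox1 had a value of −0.11 (adjusted p = 0.432), Calb1 −0.18 (adjusted p = 0.0924) and C1ql2 −0.06 (adjusted p = 0.735). The list median was −0.01 in control, −0.31 in RES and −0.10 in SUS mice, and the summed level ran from 1088 to 2292 CPM in EE and from 1226 to 2113 CPM in SH mice. Beyond the fits with these scores as covariates, the part of myelin and granule cell content in the other results was not tested.

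**Figure D5:**
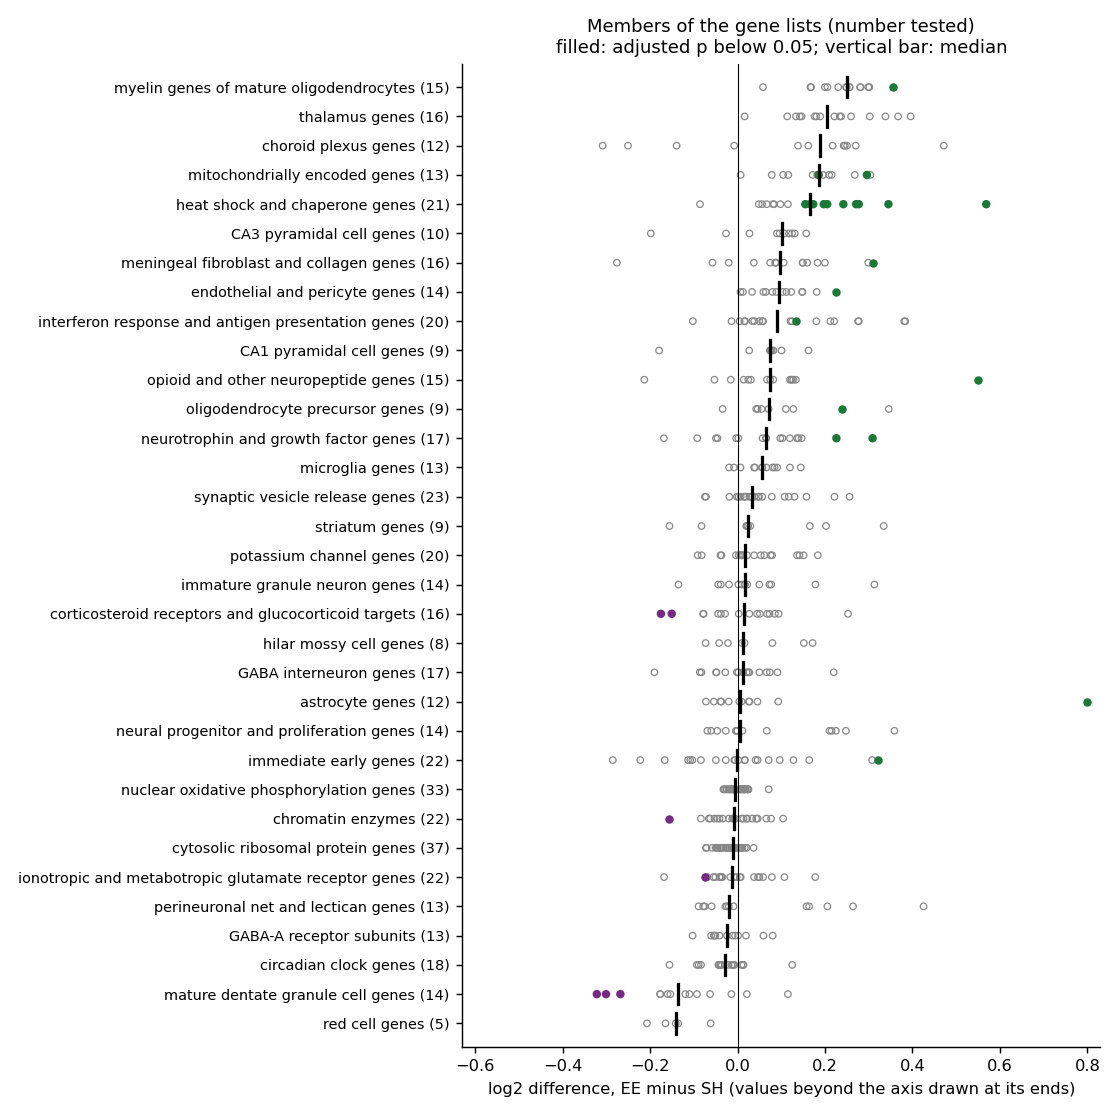
Log2 difference EE minus SH of the members of 33 gene lists, with one point per gene, filled where the adjusted p was below 0.05, and a vertical bar at the median of the list. The heat shock and chaperone list holds 10 filled points on the right, the mature granule cell list 3 on the left, and the other lists 2 or fewer.

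Mitochondrially encoded genes were higher, with a median of 0.19, all 13 positive and 11 at an unadjusted p below 0.05, and mt-Nd2 (0.30, adjusted p = 0.0281) and mt-Cytb (0.19, adjusted p = 0.0486) were called. Their median was 0.31 in control and 0.29 in RES mice but 0.017 in SUS mice, where 8 of the 13 were positive, and this difference between phenotypes was not tested for the list. Nuclear genes of oxidative phosphorylation had a median of −0.01, with none of 33 called and 1 at an unadjusted p below 0.05. Endothelial and pericyte genes had a median of 0.10, with all 14 positive, 8 at an unadjusted p below 0.05, and the VEGF receptor Flt1 called at 0.23 (adjusted p = 0.0202). Of 16 meningeal fibroblast and collagen genes, only Igf2 was called, and of 17 neurotrophin and growth factor genes Igf2 and Flt1 were, with a median of 0.07 for that list. Over all genes, 53% were positive, 8.29% were higher at an unadjusted p below 0.05 and 0.662% were called higher.

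Genes for which enrichment is best known did not pass. The neurotrophin Bdnf had a log2 difference of −0.05 ± 0.049 (adjusted p = 0.668), the immature neuron marker Dcx 0.0018 ± 0.043 (adjusted p = 0.992), Fos −0.22 ± 0.12 (adjusted p = 0.336), Igf1 −0.0035 ± 0.053 (adjusted p = 0.987), Vegfa 0.10 ± 0.057 (adjusted p = 0.366) and the proliferation marker Mki67 0.21 ± 0.083 (adjusted p = 0.170). None of 14 neural progenitor and proliferation genes and none of 14 immature granule neuron genes was called by edgeR, although 4 and 2 of them had an unadjusted p below 0.05. Over all genes, 1.88% were called and 16.5% had an unadjusted p below 0.05. Among 22 immediate early genes, which neurons switch on with activity, only Fosb was called, at 0.32 ± 0.082 (adjusted p = 0.0261) from 1.38 ± 0.281 to 1.74 ± 0.355 CPM, and the list had a median of 0.00.

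For the remaining lists the counts were low, beside 1.88% of all genes called. Gria2, an AMPA receptor subunit, was the only one of 22 glutamate receptor genes called, at −0.08 (adjusted p = 0.0466). At an unadjusted p below 0.05, 6 members were lower and 1 higher, against 8.24% and 8.29% of all genes. Hdac1, a histone deacetylase, was the only one of 22 chromatin enzymes called, at −0.16 ± 0.030 (adjusted p = 0.00218). Lcn2 was the only one of 12 astrocyte genes called, and B2m, the light chain of MHC class I, the only one of 20 interferon response and antigen presentation genes (0.13, adjusted p = 0.039). No gene was called by edgeR in the lists for mossy cells (8 genes tested), CA1 (9) and CA3 (10) pyramidal cells, GABA interneurons (17), GABA-A receptor subunits (13), synaptic vesicle release (23), perineuronal nets (13) or microglia (13). The same held for choroid plexus (12), thalamus (16), striatum (9), red cells (5), the circadian clock (18), potassium channels (20) and cytosolic ribosomal proteins (37). The medians of these 15 lists lay between −0.14 for red cell genes and 0.21 for thalamus genes. Of their members, 18 were higher and 16 lower at an unadjusted p below 0.05, where 8.29% of all genes were higher and 8.24% lower. All 16 thalamus genes were positive, where 53% of all genes were. Their median was −0.33 in control, 0.21 in RES and 0.70 in SUS mice. For choroid plexus genes the medians were −0.54, 0.72 and 0.33, in the same order. These differences between phenotypes were not tested for the lists.

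Whether housing acted differently by phenotype was tested directly. The housing by phenotype terms reached an adjusted p of 0.05 for no gene by edgeR, limma or DESeq2, with 983, 978 and 991 genes at an unadjusted p below 0.05, which is 5.38% of genes for edgeR. The smallest adjusted p by edgeR was 0.870, for Gm9105, Phf20-ps and Gripap1. Gripap1, a protein of recycling endosomes at synapses, had differences of 0.00 in control, 0.13 in RES and −0.04 in SUS mice. Within single phenotypes, 1 gene (0.00547%) was called in control mice, 50 (0.273%) in RES mice and 1 (0.00547%) in SUS mice. The gene in control mice was Penk, and the smallest p in RES mice was that of Klhl32. Before adjustment, 917 genes (5.02%) had a p below 0.05 in control, 2934 (16%) in RES and 1346 (7.36%) in SUS mice.

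Fits that left out 1 phenotype were also set beside the mice left out, which may have shared cages with the mice fitted. The genes called in these fits are not the same sets as the 343 genes of the pooled comparison. When the control mice were left out, 402 genes were called in the defeated mice, and 322 of the 399 of these tested in control mice (80.7%) had the same direction there, against 55.5% of all genes. When RES mice were left out, 35 genes were called and 32 of 34 (94.1%) had the same direction in RES mice, against 62.6% of all genes. When SUS mice were left out, 25 genes were called and 24 of 25 (96.0%) had the same direction in SUS mice, against 63.5% of all genes. Not all genes of the same direction had an unadjusted p below 0.05 by edgeR in the mice left out. That threshold was reached by 52 of the 322 genes for control, 18 of the 32 for RES and 17 of the 24 for SUS mice. For Penk the direction was shared by all phenotypes, and each of the 24 protein-coding genes with the smallest p, 12 that rose and 12 that fell, was called in all 54 fits that left out 1 mouse.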

How the data were processed

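The authors deposited raw counts, that is unnormalized numbers of read pairs for each gene, from 55 libraries of ventral dentate gyrus. The submitters' processing notes name STAR, Picard and mm10. The methods state a quality cutoff of 15, alignment to GRCm38 with STAR and counting with featureCounts, whereas the files are laid out as STAR writes its gene counts. The kit was stranded, so the reverse-strand column was used, and the forward strand held between 3.51% and 4.13% of the stranded counts. Rows that name no gene were left out. They held 13.9% to 19.9% of the read pairs as unmapped, 8.70% to 12.1% as mapped to several places, 19.9% to 28.8% outside genes and 0.836% to 1.12% as ambiguous. Names and coordinates came from GENCODE M21, which matched 44671 of the 45318 identifiers.

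Mice were grouped by the deposited labels. The methods give 1 to 7 replicates per CSDS group without naming them, so all 54 mice were used. Low-count genes were removed with filterByExpr over the 6 groups, counts were normalized by TMM, and housing was tested with phenotype as a covariate by the quasi-likelihood F-test in edgeR, with p-values adjusted after Benjamini and Hochberg. The SE is the log2 difference divided by the square root of the F statistic, and CPM values are normalized. Software was R 4.3.3, edgeR 4.0.16, limma 3.58.1, DESeq2 1.42.0, the data.table package at 1.17.8, Python 3.11.15, NumPy 2.4.6, pandas 2.3.3 and matplotlib 3.10.9. On simulated counts of 18283 genes for the housing comparison, edgeR recovered 100% of 100 genes changed by 0.5 and 93% of 100 genes changed by 0.25 on the log2 scale, with 7 other genes called. The changed genes were drawn from those with higher mean counts, and the mice were simulated as independent. The recovery therefore does not extend to low-count genes, to smaller changes or to mice that shared a cage. A depth of at least 16760009 gene counts per mouse limits precision mainly for genes near 1 CPM or below.

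Some genes that the rule names are not reported here. The comparison, the gene lists and the rule for named genes were chosen with earlier results of these data known. The rule named the 12 protein-coding genes of smallest p in each direction, the 5 largest differences in each direction at 1 CPM or more, the 3 genes of smallest p for housing by phenotype, the called members of each of 33 lists (up to 6), and Bdnf, Dcx, Fos, Igf1, Vegfa and Mki67. Rbm3, Cirbp, Xbp1, Pdia3, Hyou1, Dnajb2, Hspa2, Klhl32, Nr3c1, the list members given as not passing and the genes of the last section are not covered by the rule. They were picked with their values in view, as were 3 further lists (ER chaperones, cytosolic heat shock genes and the pair Rbm3 and Cirbp). The alternatives were DESeq2's size factors, omitting the low-count filter, a filter at 1 CPM in 7 or more mice, unstranded counts, the 6-group model, no phenotype covariate, a replicate block, marker scores as covariates, DESeq2, limma-voom with and without sample quality weights, the first run of EE control mouse 9 alone, each phenotype alone, and each mouse left out in turn. Covariates for granule cells and for unmapped reads, and fits without choroid-rich mice or without a phenotype, were added after the data were seen.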

Additional observations from a re-analysis of the deposited data

Results flagged for a closer look

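Single mice that stood far from the rest of their group were looked for in 28 genes named above, in 168 groups of 7 to 10 mice, of which chance alone picks about 1 in 20, and 15 were found. SH RES mouse 5 had the highest Penk of its group at 20.96 CPM, where the other 6 mice lay between 11.8 and 15.5 CPM. The same mouse had the highest Dach2 of its group at 2.59 CPM and the lowest Rapgef5 at 193.9 CPM, each in the direction of the EE mice. SH RES mouse 4 had the highest Hspa1b (15.6 CPM) and Calr (436.8 CPM) of its group. Hspa4l was highest in EE control mouse 5 at 213.8 CPM and in EE RES mouse 8 at 228.8 CPM.

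For Sec24d, EE RES mouse 8 was lowest at 27.8 CPM and SH RES mouse 6 highest at 48.7 CPM. SH SUS mouse 8 was highest for Slc6a15 at 133.5 CPM and for Scgn at 3.63 CPM, and EE SUS mouse 1 was highest for Scgn in its group at 1.92 CPM. Adgrl4 was lowest in EE SUS mouse 2 at 18.1 CPM, and Fam131a highest in EE SUS mouse 9 at 449.9 CPM. Lcn2 was highest in SH control mouse 3 at 1.84 CPM, while the other SH control mice lay at or below 0.150 CPM. Lcn2 was called in 27 of 54 fits with 1 mouse left out.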

How the results depend on the processing

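The count of 343 genes (121 higher, 222 lower) stayed within 1.5 times under size factors, unstranded counts, the 6-group model, no phenotype covariate, limma-voom, the choroid plexus and thalamus or the CA1 and CA3 scores, the first run of EE control mouse 9 alone, and the shares of unmapped and unassigned reads as covariates. It moved to 205 (72 and 133) without a low-count filter, to 48 (16 and 32) with the red cell and myelin scores, to 119 (49 and 70) with the granule cell score, to 521 by DESeq2 (189 higher) and to 648 (247 and 401) with sample quality weights. It was 1 (1 and 0) in control mice alone, 18 (6 and 12) in RES mice alone, 1 (1 and 0) in SUS mice alone, 35 (20 and 15) without RES mice and 25 (4 and 21) without SUS mice. Leaving out 1 mouse gave 192 (without EE control mouse 5) to 600 genes (without SH SUS mouse 3), 59 to 212 higher and 133 to 388 lower. The 100 genes under the criterion of the study became 580 without a filter, 26 with at least 1 CPM in 7 mice, 518 in RES and 215 in SUS mice alone, 179 without control mice and 152 without SUS mice, and 93 to 133 with 1 mouse left out. The cause of these shifts was not tested. No gene passed for housing by phenotype in any of 9 alternatives. In 25 pairs of EE and SH mice with the same phenotype and replicate number, the correlation of deviations had a median of −0.00887 and 5 exceeded 0.1. Of the EE mice, 4 correlated best with the SH mouse of their own number, and the number to be met by chance was not worked out. These correlations cannot tell whether a number marks a shared cage, litter or batch, which was not tested. Of the 6 mice of highest choroid plexus level, EE RES 3, EE SUS 3, SH control 3 and SH SUS 3 carry the same number. With the replicate block 411 genes were called (155 and 256), and 119 by the criterion of the study. Changes of sign occurred in genes that did not pass, which were Mki67 (−0.060 with unstranded counts), Bdnf (0.057 in SUS mice alone, 0.0029 with the granule cell score, 0.0056 without RES mice), Dcx (−0.0061 in the 6-group model, −0.012 with the replicate block, −0.00042 with the first run, −0.14 in RES mice alone, −0.0063 without the choroid-rich mice, −0.060 without control and −0.0037 without SUS mice) and Igf1 (0.0010 with CA scores, 0.00057 with the first run, 0.0065 in RES and 0.0011 in SUS mice alone, 0.024 with the read shares, 0.0036 without control mice). Depth and the spread between mice limit genes near 1 CPM, such as Lcn2.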

Other observations

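The genes of this section were picked after their values were seen. Apart from those of the closing correlations, they were picked singly from those called and stand for no group. Of genes that rose, Serpinh1, which encodes the collagen chaperone HSP47 of the ER, averaged 18.1 ± 2.002 CPM in EE and 15.97 ± 1.74 CPM in SH mice (SD, n = 27 each), a log2 difference of 0.19 ± 0.041 (SE, adjusted p = 0.00928 by edgeR), and 26 of 27 EE mice lay above the SH median. The collagen-modifying enzymes Plod1 and Plod3 had differences of 0.17 (adjusted p = 0.00569) and 0.11 (adjusted p = 0.0403). Mlec, which encodes malectin, a lectin of the ER, rose by 0.14 (adjusted p = 0.00732), and Hsf4, a member of the heat shock factor family, by 0.26 (adjusted p = 0.0061).

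Of genes that fell, Coro1a, an actin-binding coronin, fell by 0.13 ± 0.025 from 100.3 ± 5.53 to 91.4 ± 6.41 CPM (adjusted p = 0.00202). Arpc2, Actr3 and Arpc1a, which encode subunits of the Arp2/3 complex, fell by 0.09 (adjusted p = 0.0111), 0.07 (adjusted p = 0.0289) and 0.06 (adjusted p = 0.048), with 25, 24 and 22 of 27 EE mice below the SH median. They were picked because they were called, where 1.21% of all genes were called lower. Other subunits are not reported, so these values do not describe the complex. Cyfip1, of the WAVE complex, fell by 0.07 (adjusted p = 0.0148) and the formin Diaph1 by 0.14 (adjusted p = 0.022). Rgs14, a regulator of G protein signaling known for limiting plasticity in CA2, fell by 0.20 ± 0.039 (adjusted p = 0.00291), and the Ras exchange factors Rasgrf1 and Rasgrf2 fell by 0.10 (adjusted p = 0.0212) and 0.14 (adjusted p = 0.032). The vasopressin receptor Avpr1a, at 0.208 ± 0.105 CPM in EE and 0.372 ± 0.137 CPM in SH mice, had a difference of −0.80 ± 0.165 (adjusted p = 0.00482), and 24 of 27 EE mice lay below the SH median.

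The fixed interferon and antigen presentation list had 1 of 20 genes called, against 1.88% of all genes. Outside that list, Ifi44, an interferon-induced gene, averaged 0.751 ± 0.171 CPM in EE and 0.540 ± 0.182 CPM in SH mice, a difference of 0.46 ± 0.112 (adjusted p = 0.0192), with 26 of 27 EE mice above the SH median. Phf11d rose by 0.44 (adjusted p = 0.0387), Rtp4 by 0.30 (adjusted p = 0.0353), Sp100 by 0.23 (adjusted p = 0.0451) and Parp14 by 0.22 (adjusted p = 0.0202). These genes were picked because they were called, where 0.662% of all genes were called higher, so they do not describe interferon genes as a group.

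From mouse to mouse, the chaperone genes Hspa5, Hsp90b1, Hspb1 and Hspa1b tended to vary in the opposite direction to the cold-inducible genes Rbm3 and Cirbp. After subtraction of the 6 group means, Hspa5 and Cirbp were correlated over the 54 mice (Pearson's r −0.818, Spearman's rho −0.836). In 100000 permutations within groups the p was 1e-05 for each, the smallest they can give, and 2.67e-05 and 4e-05 after adjustment over 8 relations. The genes were picked with their values in view, and the adjustment does not cover that choice. How many other pairs of genes correlate as strongly was not tested. Within groups, the granule cell and CA3 scores also had an r of −0.827. Leaving out the 2 mice farthest from the median of Hspa5 gave an r of −0.782, and r was −0.847 within EE and −0.735 within SH mice. For Hspa1b and Rbm3 the r was −0.465 (permutation p = 0.0005, adjusted p = 0.000667) and the rho −0.467 (permutation p = 0.00096, adjusted p = 0.00128), with −0.41 without the 2 farthest mice, −0.368 within EE and −0.651 within SH mice. Over the 8 relations between Hspa5, Hsp90b1, Hspb1 or Hspa1b and Rbm3 or Cirbp, r ranged from −0.818 to −0.275, and the weakest, between Hspb1 and Rbm3, did not pass by Pearson's r (adjusted p = 0.0807) but did by rho (−0.335, adjusted p = 0.0242).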
